A study of Mus musculus with 16 samples.

Results

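The transcriptional response to cyclic di-guanylate monophosphate (c-di-GMP) was measured by RNA-seq in bone marrow-derived dendritic cells (BMDCs) of mice that lack both IRF3 and IRF7 (*Irf3/7*-/-). The members were chosen by genotype and treatment. They are 4 of the 16 samples of the series, 2 labelled as untreated and 2 as treated with c-di-GMP for 18 h. The other genotypes of the series are wild type, *Irf1*-/- and *Tmem173*-/-, and the wild-type and *Irf1*-/- BMDCs, with 4 samples each, serve here only for comparison. All mice were on the C57BL/6 background, and the methods of the study give an age of 6 to 12 weeks and sex-matched groups. Bone marrow was cultured for 6 days with GM-CSF and IL-4, each at 10 ng/ml, and the floating or loosely attached cells were taken; no sort is described. The sample labels give a c-di-GMP dose of 25 ug/ml, and a figure legend of the study gives 50 ug/ml. Both genes are deleted in the germ line, so they are missing from every cell in the culture and during its differentiation.

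c-di-GMP is a second messenger of bacteria that binds STING, the endoplasmic reticulum protein encoded by *Tmem173*. Bound STING recruits the kinase TBK1, which phosphorylates IRF3, and it also activates NF-κB. IRF3 and IRF7 are the factors best known for switching on the genes of type I interferons, which then act through their receptor on the interferon-stimulated genes of the same and neighbouring cells. Dendritic cells that sense a pathogen also raise co-stimulatory molecules and cytokines, lose endocytic receptors and leave the cell cycle.

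The authors' table gives 1 expression value per condition, in FPKM (fragments per kilobase and per mapped library size), with the limits of a confidence interval. The 2 samples of a condition were combined by the authors, and the labels do not say whether they came from separate cultures or mice, so the spread between samples cannot be seen and no p-value is given. Values in parentheses after an FPKM are the authors' interval. The table gives no depth per sample. Among genes with at least 10 FPKM, the median distance from the value to its bounds was 25.6% of the FPKM in untreated and also in treated *Irf3/7*-/- BMDCs. To be called, a gene had to differ more than 2-fold between treated and untreated cells on the log2(FPKM + 0.1) scale, with intervals that did not overlap, 1 FPKM or more in either condition and the status OK for both values. Log2 changes are on that scale and understate the change of low genes. A difference between genotypes is the log2 change in *Irf3/7*-/- BMDCs minus that in wild-type BMDCs, unless another is named. Limits in parentheses after log2 changes and differences were propagated from the authors' intervals. The verbs rose and fell are used only of genes that met the rule.

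c-di-GMP moved a large set of genes without IRF3 and IRF7. Of 11283 genes tested in *Irf3/7*-/- BMDCs, 1149 rose, which is 10.2%, and 866 fell, which is 7.68%, so that 17.9% were called. These shares are the background to every count of list members below. For a difference from the wild-type change, the background is 3.53% called higher and 2.32% called lower. In bulk RNA, fewer cells of a type and less RNA per cell cannot be told apart. Large rises outnumbered large falls. Of the genes that rose, 362 did so more than 4-fold, 151 more than 8-fold and 52 more than 16-fold. Of those that fell, 138 did so more than 4-fold, 36 more than 8-fold and 11 more than 16-fold. The median log2 change of all tested genes was 0.0045. The largest rise was that of *Il12b* (chr11:44400063-44414017, protein-coding), the shared subunit of IL-12 and IL-23, from 2.95 FPKM (2.10 to 3.79) to 1474 FPKM (1099 to 1849). The largest fall was that of *Actg2* (chr6:83512909-83536251, protein-coding), an enteric smooth muscle actin, from 12.7 FPKM (9.59 to 15.7) to 0.266 FPKM (0.0907 to 0.454). Positions are on GRCm38.

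**Figure D1:**
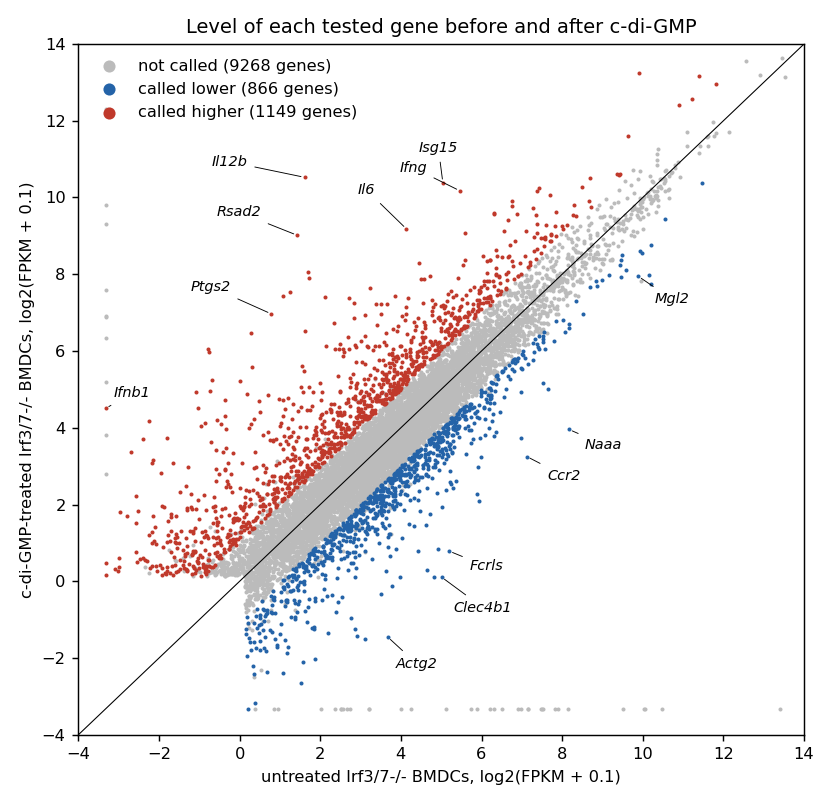
Level of each of the 11283 tested genes in untreated (horizontal axis) and treated (vertical axis) *Irf3/7*-/- BMDCs, both as log2(FPKM + 0.1); each point is a gene, red if called higher, blue if called lower, grey otherwise, and the line marks equal levels. Points on the left or bottom edge are listed at 0 in one condition, and of these 3 were called higher and 1 lower.

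The targeted genes were looked at first. *Irf7* (chr7:141263183-141266424) had 1.07 FPKM (0.593 to 1.55) in untreated and 4.97 FPKM (3.46 to 6.49) in treated *Irf3/7*-/- BMDCs. In wild-type BMDCs it had 15.2 FPKM (11.6 to 18.8) and 687 FPKM (504 to 871). The level of *Irf7* in the knockout was thus below that of the wild type in both conditions, with intervals that did not overlap, and the difference of the log2 changes was -3.38 (-4.25 to -2.37). *Irf3* (chr7:44997648-45002848) rose in the knockout, from an untreated level of 7.74 FPKM (5.55 to 9.96) to a treated one of 20.2 FPKM (14.8 to 25.7), a log2 change of 1.37. Wild-type BMDCs had 19.9 FPKM (15.4 to 24.5) untreated and 15.8 FPKM (11.6 to 20.0) treated, so the untreated knockout level lay below the wild type and the treated one overlapped it. An FPKM of the whole gene also counts fragments of exons outside a deleted part, and the table does not separate exons, so the *Irf3* value does not check the deletion. *Tmem173*, the gene of the sensor itself, was at 86.2 FPKM (65.0 to 107) and 80.0 FPKM (60.5 to 99.4) in *Irf3/7*-/- BMDCs, which overlap.

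Type I interferon was represented by *Ifnb1* (chr4:88522025-88522794), the gene of interferon beta. *Ifnb1* was listed at 0 in untreated *Irf3/7*-/- BMDCs and had 22.6 FPKM (15.8 to 29.3) once c-di-GMP was given. In the wild type it was also listed at 0 without treatment and reached 2.93 FPKM (1.76 to 4.08) with it. The treated levels of the genotypes did not overlap, and the knockout had the higher one. No fold is given against a value listed at 0. *Ifnb1* was the only one of the 18 type I and type III interferon genes in the table that reached 1 FPKM in the knockout. *Ifna4*, an interferon alpha gene that is induced early in many cells, stayed under 0.05 FPKM in *Irf3/7*-/- BMDCs, at 0.0423 and 0.0484. In the wild type it was listed at 0 and reached 3.53 FPKM (1.91 to 5.06) with treatment. The other 16 interferon genes were also below 0.05 FPKM in the knockout, treated or not.

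All 35 antiviral interferon-stimulated genes of the list rose in *Irf3/7*-/- BMDCs, against 10.2% of all tested genes, with a median log2 change of 3.32. In wild-type BMDCs the same 35 rose, against a background of 10.5%, with a median of 3.02. *Rsad2*, the gene of viperin, an enzyme that makes a chain-terminating nucleotide, rose from 2.59 to 518 FPKM, a log2 change of 7.59 (7.03 to 8.15). *Ifit1*, whose protein binds viral RNA lacking a host cap, rose from 2.27 to 185 FPKM. Its relatives moved with it. *Ifit2* rose from 3.13 to 268 FPKM and *Ifit3* rose from 0.477 to 66.5 FPKM. *Isg15*, a ubiquitin-like modifier, reached the highest level of the list, with 1339 FPKM (905 to 1642) against 32.8 FPKM (21.9 to 43.3) untreated. *Bst2*, also called tetherin, which holds budding virus at the membrane, rose from 119 to 763 FPKM.

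The levels of this list lay lower in the knockout for some members, already without treatment. Set against untreated wild-type BMDCs by the same rule, 11 of the 35 were lower and none higher in untreated *Irf3/7*-/- BMDCs, where 0.863% of all genes were lower, 1.17% higher and 2.04% either. Among treated BMDCs 5 of the 35 were lower and none higher, where 2.69% of all genes were lower, 4.61% higher and 7.3% either. The untreated level of *Ifit1* was 2.27 FPKM (1.61 to 2.92) in the knockout against 5.89 FPKM (4.40 to 7.37) in the wild type, and that of *Ifit3* was 0.477 FPKM (0.239 to 0.697) against 1.39 FPKM (0.916 to 1.87). The treated level of *Rsad2* was 518 FPKM (381 to 654) in the knockout and 1245 FPKM (899 to 1588) in the wild type. These are comparisons of level, and the response is compared by the difference of the log2 changes. For *Rsad2* that difference was -0.66 (-1.45 to 0.15). A difference that is not called does not show equal responses. For 33 of the 35 genes the difference of the log2 changes between the genotypes was not called. It was called for *Oas2* and *Oas3*, sensors of double-stranded RNA, which are named because they are the only ones. Of all genes tested for a difference, 3.53% were called higher and 2.32% lower, so 2 of 35 is near the share of all genes. The log2 changes of *Oas2* and *Oas3* were 4.30 and 4.39 in *Irf3/7*-/- BMDCs against 3.12 and 3.13 in the wild type. In both, the untreated level was lower in the knockout. For *Oas2* it was 0.695 FPKM (0.463 to 0.936) against 2.67 FPKM (1.98 to 3.37), and for *Oas3* it was 4.95 FPKM (3.78 to 6.12) against 17.8 FPKM (13.8 to 21.9).

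The promoters of interferon-stimulated genes carry a short element, the ISRE, that is read by IRF factors, while NF-κB reads a different one. The windows below run from 250 bases before to 50 bases after the start site in RefSeq on GRCm38.p6 and are shown 5′ to 3′ on the gene's own strand. They are shown for genes that rose in *Irf3/7*-/- BMDCs by a large factor (*Rsad2*, *Ifit1*), for *Ifnb1*, for a gene whose rise was smaller there (*Cxcl10*) and for one with no rise there (*Pcp4*, described further on). Capitals mark matches on either strand to GAAANNGAAA, called ISRE-like here, or to the NF-κB consensus.
Rsad2: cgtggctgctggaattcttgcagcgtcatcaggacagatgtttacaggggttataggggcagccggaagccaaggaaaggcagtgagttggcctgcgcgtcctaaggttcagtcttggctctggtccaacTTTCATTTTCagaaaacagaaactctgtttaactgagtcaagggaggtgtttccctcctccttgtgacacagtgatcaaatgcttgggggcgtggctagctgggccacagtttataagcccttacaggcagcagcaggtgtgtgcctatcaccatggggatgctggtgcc
Ifit1: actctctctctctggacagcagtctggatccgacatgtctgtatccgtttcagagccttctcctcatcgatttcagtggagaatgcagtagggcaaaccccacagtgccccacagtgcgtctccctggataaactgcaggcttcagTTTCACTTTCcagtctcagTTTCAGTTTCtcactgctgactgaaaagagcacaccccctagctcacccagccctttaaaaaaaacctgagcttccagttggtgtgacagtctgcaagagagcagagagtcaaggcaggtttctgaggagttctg
Ifnb1: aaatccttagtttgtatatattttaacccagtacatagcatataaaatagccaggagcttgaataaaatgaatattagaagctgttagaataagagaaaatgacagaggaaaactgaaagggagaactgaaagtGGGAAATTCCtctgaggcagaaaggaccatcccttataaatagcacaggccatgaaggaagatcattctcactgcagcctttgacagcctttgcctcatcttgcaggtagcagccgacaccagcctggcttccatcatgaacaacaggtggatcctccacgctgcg
Cxcl10: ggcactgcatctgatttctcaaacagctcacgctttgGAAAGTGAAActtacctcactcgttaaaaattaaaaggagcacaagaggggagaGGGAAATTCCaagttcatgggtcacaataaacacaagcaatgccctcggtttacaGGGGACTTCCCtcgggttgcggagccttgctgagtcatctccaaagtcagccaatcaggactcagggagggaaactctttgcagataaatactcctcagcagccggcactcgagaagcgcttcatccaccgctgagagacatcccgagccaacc
Pcp4: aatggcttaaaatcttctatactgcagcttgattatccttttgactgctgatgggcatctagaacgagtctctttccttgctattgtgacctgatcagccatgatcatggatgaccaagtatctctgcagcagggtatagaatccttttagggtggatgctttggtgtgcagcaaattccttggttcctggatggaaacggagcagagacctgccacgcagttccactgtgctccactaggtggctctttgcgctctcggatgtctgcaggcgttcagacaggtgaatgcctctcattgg
The *Rsad2* window is chr12:26456403-26456702 on the minus strand. The *Ifit1* window is chr19:34640639-34640938 on the plus strand. The *Ifnb1* window is chr4:88522745-88523044 on the minus strand. The *Cxcl10* window is chr5:92348840-92349139 on the minus strand. The *Pcp4* window is chr16:96467356-96467655 on the plus strand. In *Rsad2* an ISRE-like match begins at -120 from the start site, and *Ifit1* holds a pair at -104 and -85. The *Ifnb1* window holds an NF-κB match at -116 and no match to the ISRE-like letters, though it holds runs of GAAA at another spacing. *Cxcl10* holds an ISRE-like match at -213 and NF-κB matches at -159, -104 and -103, the last of which overlap each other. The *Pcp4* window holds neither. Of all 32851 windows in the RefSeq table, 3.44% hold an ISRE-like match and 8.46% an NF-κB match. Windows could be matched to 79.9% of the tested genes and to 76.6% of the genes that rose, so shares over these genes are not given. A match is a run of letters and not evidence of binding. The ISRE-like letters ask for a fixed spacing, so a window without a match can still hold sites read by IRF factors.

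Genes known for their response to interferon gamma or to IRF1 rose in smaller number. In *Irf3/7*-/- BMDCs, 11 of 21 tested members rose and none fell, with a median log2 change of 1.07. In the wild type 16 of 22 tested rose, with a median of 1.44. The rise of *Nos2*, the inducible nitric oxide synthase, was from 78.6 to 779.9 FPKM in the knockout and from 15.2 to 334 FPKM in the wild type. Its untreated and its treated level were both higher in the knockout, with intervals apart, and the difference of the log2 changes was -1.14 (-1.93 to -0.37). *Gbp2*, a guanylate-binding GTPase, was at 489 FPKM (371 to 606) and 726 FPKM (547 to 905), which overlap. *Cxcl9*, a chemokine for activated T cells, was at 25.0 FPKM (18.2 to 31.7) and 35.1 FPKM (25.6 to 44.3) and was not called. In the wild type it rose from 21.7 to 52.2 FPKM, but the difference of the changes, -0.78 (-1.58 to 0.02), was not called. *Ciita*, the master regulator of MHC class II, was at 26.1 FPKM (17.8 to 34.3) and 18.9 FPKM (13.0 to 24.8), with a difference of -1.03 (-1.90 to -0.14) from the wild-type change that was not called with a pseudocount of 1 FPKM. The other members with a called difference were *Ido1*, *Ubd* and *Gbp5*, all with smaller changes in the knockout.

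Of 16 tested genes of other IRFs, STATs and their kinases, 5 rose in each genotype and none fell. *Irf8*, a factor of dendritic cell development, rose from 69.8 to 322 FPKM in *Irf3/7*-/- and from 55.5 to 303 FPKM in wild-type BMDCs. *Irf1* was at 164 FPKM (118 to 211) and 262 FPKM (187 to 338), a log2 change of 0.67 that was not called. *Irf9*, a factor of the type I interferon response, went from 29.9 to 51.3 FPKM, a log2 change of 0.78 that was not called either. *Stat2*, a transcription factor of the type I interferon response, rose from 28.2 to 109 FPKM. No member of this list had a called difference between the genotypes.

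Sensors of nucleic acids rose in part. Of 21 tested members of the STING pathway and of sensors, 10 rose and none fell in *Irf3/7*-/- BMDCs, with a median log2 change of 0.94, against 11 in the wild type. *Ifi205*, of the family of DNA-binding p200 proteins, rose from 2.003 to 174 FPKM, a log2 change of 6.37 (5.82 to 6.98), and from 2.37 to 197 FPKM in the wild type. *Trex1*, a nuclease that degrades cytosolic DNA, rose from 72.2 to 227 FPKM. *Tbk1* was at 25.4 FPKM (19.6 to 31.3) and 49.0 FPKM (37.6 to 60.5) and did not reach 2-fold, and *Mb21d1*, the gene of the DNA sensor cGAS, was at 5.81 FPKM (4.30 to 7.30) and 9.24 FPKM (6.92 to 11.6). *Tlr3*, the endosomal sensor of double-stranded RNA, was the only member with a called difference. It rose from 0.452 to 2.37 FPKM in the knockout and from 0.606 to 6.77 FPKM in the wild type.

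NF-κB and its feedback inhibitors form the other arm of the pathway. Of 22 tested genes, 9 rose and none fell in *Irf3/7*-/- BMDCs, with a median log2 change of 0.81; in the wild type 7 rose. *Nfkbia*, which encodes the inhibitor IκBα, rose from 192 to 486 FPKM. *Tnfaip3*, the gene of the ubiquitin-editing brake A20, rose from 40.2 to 118 FPKM. *Nfkb2* rose from 82.9 to 177 FPKM. *Nfkbiz*, a nuclear partner of NF-κB needed for *Il6* and *Il12b* in macrophages, had the largest change, from 2.07 to 22.3 FPKM in *Irf3/7*-/- and from 2.49 to 6.71 FPKM in wild-type BMDCs. It was the only member with a called difference, 1.97 (1.21 to 2.72).

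Cytokine genes rose more strongly. In *Irf3/7*-/- BMDCs, 19 of 23 tested inflammatory cytokine genes rose and none fell, with a median log2 change of 2.09. In the wild type 17 of 21 tested rose, with a median of 2.07. The called differences ran mostly one way. The change was larger in the knockout for 10 members and smaller for 2, where 3.53% and 2.32% of all 11513 genes tested for a difference were called in those directions. *Il12b* rose from 2.95 to 1474 FPKM in *Irf3/7*-/- BMDCs and from 4.59 to 148 FPKM in the wild type, a difference of 3.94 (3.18 to 4.70). Its treated level in the knockout, 1474 FPKM (1099 to 1849), lay far above the 148 FPKM (114 to 182) of the treated wild type. *Il23a*, whose product pairs with that of *Il12b* to form IL-23, rose from 0.109 to 18.1 FPKM, a difference of 2.36 (1.17 to 3.68). *Il12a*, which encodes the other chain of IL-12 and was picked here to complete the pair, rose from 0.517 to 37.6 FPKM in the knockout and from 0.370 to 6.57 FPKM in the wild type.

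*Il6*, an inducer of acute-phase proteins and of T cell help, rose from 17.5 to 580.4 FPKM in the knockout and from 21.5 to 339 FPKM in the wild type. The difference of the changes was 1.07 (0.08 to 2.01). Its intervals overlapped between the genotypes in both conditions, with treated ones of 383 to 691 FPKM in the knockout and 228 to 410 FPKM in the wild type. *Tnf* rose from 83.1 to 355 FPKM in *Irf3/7*-/- and from 44.6 to 91.1 FPKM in wild-type BMDCs. Its untreated level was higher in the knockout, at 83.1 FPKM (62.4 to 104) against 44.6 FPKM (33.6 to 55.7), and its treated level higher still. *Il10*, an anti-inflammatory cytokine, rose from 0.0182 to 1.14 FPKM and so stayed low; its difference from the wild type, 2.05, was not called with a pseudocount of 1 FPKM. *Il1b*, whose product drives fever and is released through the inflammasome, lay lower in the knockout. It rose from 85.9 to 245 FPKM in the knockout and from 154 to 611 FPKM in the wild type, and both of its levels lay below those of the wild type. The difference of the changes, -0.48, was not called. *Il33*, an alarmin of the IL-1 family, did not rise in *Irf3/7*-/- BMDCs. It was at 15.9 FPKM (12.3 to 19.5) untreated and 9.63 FPKM (7.35 to 11.9) treated, while it rose in the wild type, where the levels were 4.58 FPKM (3.25 to 5.93) and 21.6 FPKM (16.9 to 26.4), a difference of -2.93 (-3.67 to -2.23).

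**Figure D2:**
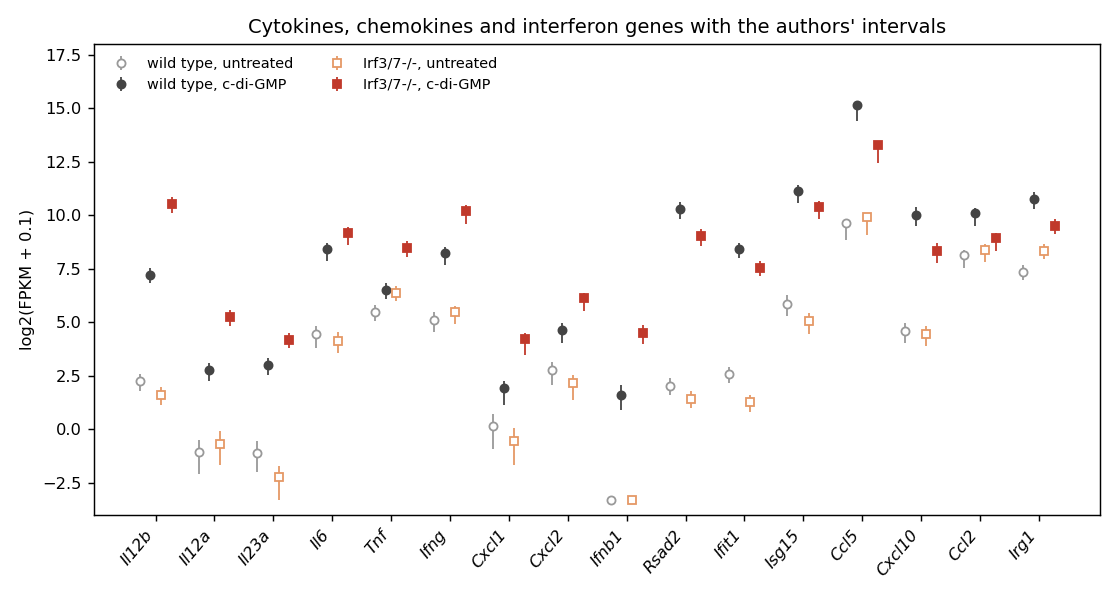
Levels, as log2(FPKM + 0.1), of cytokine, chemokine and interferon genes in untreated (open) and c-di-GMP-treated (filled) BMDCs of the wild type (circles) and of *Irf3/7*-/- mice (squares); bars are the authors' intervals, and points at the foot of the *Ifnb1* column are listed at 0. Treated *Irf3/7*-/- cells lie above treated wild-type cells for *Il12b*, *Il12a*, *Il23a* and *Ifnb1*, and below them for *Ccl5*, *Cxcl10*, *Ccl2* and *Irg1*.

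Chemokine genes differed from the wild type in both directions. Of 20 tested, 10 rose and 1 fell in *Irf3/7*-/- BMDCs, with a median log2 change of 1.07. In the wild type, 10 of 19 tested rose and 2 fell, with a median of 1.69. The change was larger in the knockout for 5 of the 20, the neutrophil ligands *Cxcl1*, *Cxcl2* and *Cxcl5* as well as *Ccl3* and *Xcl1*. It was smaller for 4, namely *Ccl2*, *Ccl5*, *Ccl7* and *Cxcl10*. Of all genes tested for a difference, 3.53% were called higher and 2.32% lower. *Cxcl1* rose from 0.575 to 18.2 FPKM in the knockout and from 0.998 to 3.72 FPKM in the wild type, a difference of 2.96 (1.49 to 4.51), and *Cxcl2*, named with its relative after its value was seen, rose from 4.31 to 70.4 FPKM and from 6.79 to 24.6 FPKM. Of those with a smaller change, *Ccl5*, which recruits T cells and monocytes, had the highest level. It rose from 954 to 9788 FPKM in *Irf3/7*-/- and from 796 to 36577 FPKM in wild-type BMDCs, a difference of -2.16 (-3.31 to -1.04). *Cxcl10*, a ligand of CXCR3 on T cells, rose from 21.6 to 315 FPKM in the knockout and from 24.1 to 1037 FPKM in the wild type, a difference of -1.56 (-2.51 to -0.61). *Cxcl10* overlaps *Cxcl11* in the table, and the authors' counting could split fragments between them. *Ccl2*, the main ligand of CCR2, was at 335 FPKM (221 to 399) and 484 FPKM (323 to 580.4) and was not called in the knockout, while in the wild type it rose from 279 to 1087 FPKM. *Ccl24*, an eosinophil ligand, fell from 1189 to 435 FPKM. *Ccl17* stayed among the highest genes of all, at 11233 FPKM (6407 to 12629) and 12635 FPKM (7241 to 14489). *Ccl22* could not be tested because the status of a value was not OK.

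Maturation genes of dendritic cells rose in *Irf3/7*-/- BMDCs. Of 18 tested, 13 rose and none fell, with a median log2 change of 1.98; in the wild type 14 rose. *Ccr7*, the receptor that leads dendritic cells to lymph nodes, rose from 171 to 1208 FPKM, and from 265 to 1257 FPKM in the wild type. *Cd40*, through which T cells license dendritic cells, rose from 46.3 to 305 FPKM. The co-stimulatory ligand *Cd86* rose from 66.2 to 209.6 FPKM, and *Cd83* rose from 90.6 to 347 FPKM. *Cd70*, the ligand of CD27 on T cells, rose from 1.29 to 26.1 FPKM in the knockout and from 2.42 to 17.7 FPKM in the wild type and was the member with a called difference, 1.41 (0.16 to 2.76).

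Genes of presentation on MHC class I rose in part, and those of class II mostly did not. Of 20 class I genes, 8 rose and none fell in the knockout, with a median log2 change of 0.80, against 11 in the wild type, with a median of 1.03. *H2-K1*, a classical class I heavy chain, rose from 679 to 1529.9 FPKM, and *B2m*, the shared light chain, rose from 3629.9 to 7938 FPKM. *Tap1*, a subunit of the peptide transporter, was at 141 FPKM (109 to 172) and 226 FPKM (174 to 279) and was not called. H2 genes are near-identical copies of each other, and the authors' counting could split their fragments. Of 13 class II genes, *H2-Oa* alone rose and 3 fell, with a median of -0.44; in the wild type 1 rose and 1 fell, with a median of 0.22. The genes that fell were *H2-DMa*, from 184 to 74.8 FPKM, and the 2 beta chains *H2-DMb1* and *H2-DMb2*, which together form the chaperone that loads peptide on class II. In the wild type their log2 changes were -0.65, -0.30 and -0.52, none of them called, and none of the differences was called. *H2-Ab1*, a class II beta chain, was at 770.3 FPKM (558 to 979) and 689 FPKM (503 to 874). *Cd74*, the invariant chain, was at 4511 FPKM (2781 to 6252) and 3336 FPKM (2165 to 4547).

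Receptors for uptake and for microbial sugars were called in both directions. Of 20 tested endocytic and pattern receptors, 7 rose and 8 fell in *Irf3/7*-/- BMDCs, where 7.68% of all tested genes fell. In the wild type, where 9.96% fell, 7 of 21 tested receptors rose and 7 fell. *Clec4b1*, a C-type lectin receptor of dendritic cells, fell from 32.1 to 0.979 FPKM, a log2 change of -4.90 (-6.09 to -4.12). *Mrc1*, the mannose receptor, fell from 11.3 to 0.688 FPKM, and *Fcrls*, an Fc receptor-like scavenger receptor, fell from 36.6 to 1.62 FPKM. *Mgl2*, a galactose-type lectin, fell from 947 to 247 FPKM. Other receptors of the list rose. *Clec4e*, the gene of Mincle, which senses mycobacterial glycolipid, rose from 11.2 to 151 FPKM, and *Cd14*, a co-receptor for lipopolysaccharide, rose from 8.57 to 84.2 FPKM. *Msr1*, a scavenger receptor, fell from 74.4 to 24.8 FPKM in *Irf3/7*-/- BMDCs but was at 48.2 FPKM (35.7 to 60.5) and 51.8 FPKM (33.7 to 69.9) in the wild type, a difference of -1.68 (-2.62 to -0.66).

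The other largest falls were of varied kind. *Ccr2*, the receptor of inflammatory monocytes, fell from 139 to 9.42 FPKM, and from 135 to 6.62 FPKM in the wild type. *Id3*, an inhibitor of E proteins, fell from 25.1 to 1.13 FPKM. *Naaa*, a lysosomal hydrolase of lipid amides, fell from 288 to 15.4 FPKM in the knockout and from 258 to 30.3 FPKM in the wild type, a difference of -1.13 (-1.84 to -0.43). *Slamf9*, a receptor of the SLAM family, fell from 30.0 to 1.68 FPKM and from 26.6 to 4.96 FPKM. *Nppc*, a natriuretic peptide gene, fell from 28.1 to 0.986 FPKM, *Spns2*, a transporter of sphingosine 1-phosphate, fell from 13.7 to 0.814 FPKM and *Rufy4*, an autophagy factor of dendritic cells, fell from 15.6 to 0.974 FPKM. All of these also fell in wild-type BMDCs.

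Of 25 tested cell cycle genes, 15 fell and none rose in *Irf3/7*-/- BMDCs, with a median log2 change of -1.23; in the wild type 19 fell and 1 rose, with a median of -1.64. *Cdk1*, the mitotic kinase, fell from 28.5 to 11.9 FPKM, and from 35.2 to 11.4 FPKM in the wild type. *Mcm2*, of the replicative helicase, fell from 30.0 to 11.2 FPKM. *Top2a*, topoisomerase of dividing cells, was at 59.1 FPKM (43.3 to 74.9) and 31.4 FPKM (23.2 to 39.5), just short of 2-fold, while in the wild type it fell from 63.8 to 17.6 FPKM. The only called difference was that of *Ccne1*, the gene of cyclin E, which is named for that reason: it was at 21.8 FPKM (16.6 to 26.9) and 15.8 FPKM (11.99 to 19.5) in the knockout and rose from 27.4 to 113 FPKM in the wild type.

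Energy metabolism showed small changes. Of 19 glycolysis genes, 5 rose and none fell in *Irf3/7*-/- BMDCs, with a median log2 change of 0.49. In the wild type 2 rose, with a median of -0.02. *Slc2a1*, the glucose transporter GLUT1, rose from 69.8 to 166 FPKM and was at 67.8 and 88.4 FPKM in the wild type. *Hk2*, a hexokinase, rose from 33.4 to 70.4 FPKM, and *Pfkfb3*, which makes the activator of phosphofructokinase, rose from 11.6 to 37.6 FPKM. None of the 19 had a called difference between the genotypes. Of 20 genes of oxidative phosphorylation, 1 fell and none rose, where 7.68% of all tested genes fell and 10.2% rose. Their median was -0.63, close to the -0.54 of the wild type, where none was called. The one that fell was *Atp5o*, a subunit of ATP synthase, from 323 to 159 FPKM.

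Of 13 tested genes associated with NRF2 and the response to oxidative stress, 8 rose and none fell in *Irf3/7*-/- BMDCs, and 8 rose in the wild type. *Hmox1*, heme oxygenase, rose from 208 to 1074 FPKM, and its levels lay above those of the wild type, 85.9 and 423 FPKM, in both conditions. *Nqo1*, a quinone reductase, rose from 7.16 to 28.3 FPKM and was at 5.61 and 6.94 FPKM in the wild type, a difference of 1.67 (0.81 to 2.53). *Mt2*, a metallothionein, rose from 100.3 to 680.1 FPKM, with both values listed above the upper limit of their own intervals.

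Among genes of nitric oxide, arginine and itaconate, 5 of 8 rose in each genotype. *Irg1*, the enzyme that makes itaconate from a citric acid cycle intermediate, rose from 323 to 729 FPKM in *Irf3/7*-/- BMDCs and from 164 to 1717 FPKM in the wild type. Its untreated level was higher and its treated level lower in the knockout, both with intervals apart, and the difference of the changes was -2.21 (-2.94 to -1.47). *Arg1*, which competes for arginine, was at 540.1 FPKM (413 to 667) and 631 FPKM (482 to 781).

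The prostaglandin pathway moved in both directions, with 3 of 11 tested genes higher and 3 lower. *Ptgs2*, the inducible cyclooxygenase, rose from 1.62 to 125 FPKM in the knockout and from 1.28 to 92.1 FPKM in the wild type. *Ptges*, the downstream synthase of prostaglandin E, rose from 0.386 to 4.25 FPKM in the knockout and from 0.470 to 20.8 FPKM in the wild type, a difference of -2.04 (-2.87 to -1.16). *Ptgs1*, the constitutive cyclooxygenase, fell from 79.2 to 13.7 FPKM. Of 14 genes of matrix and matrix proteases, 6 rose and 1 fell, where 10.2% and 7.68% of all genes did, and in the wild type 7 rose and 4 fell. The change was more positive in the knockout for 6 of them and more negative for 2, where 3.53% and 2.32% of all genes were. *Mmp13*, a collagenase, rose from 26.3 to 246 FPKM and was at 4.96 FPKM (3.67 to 6.24) and 7.35 FPKM (5.57 to 9.13) in the wild type. *Mmp12*, the macrophage elastase, was at 1876 FPKM (1301 to 2450.5) and 1952 FPKM (1341 to 2562) in the knockout but fell from 977 to 343 FPKM in the wild type.

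**Figure D3:**
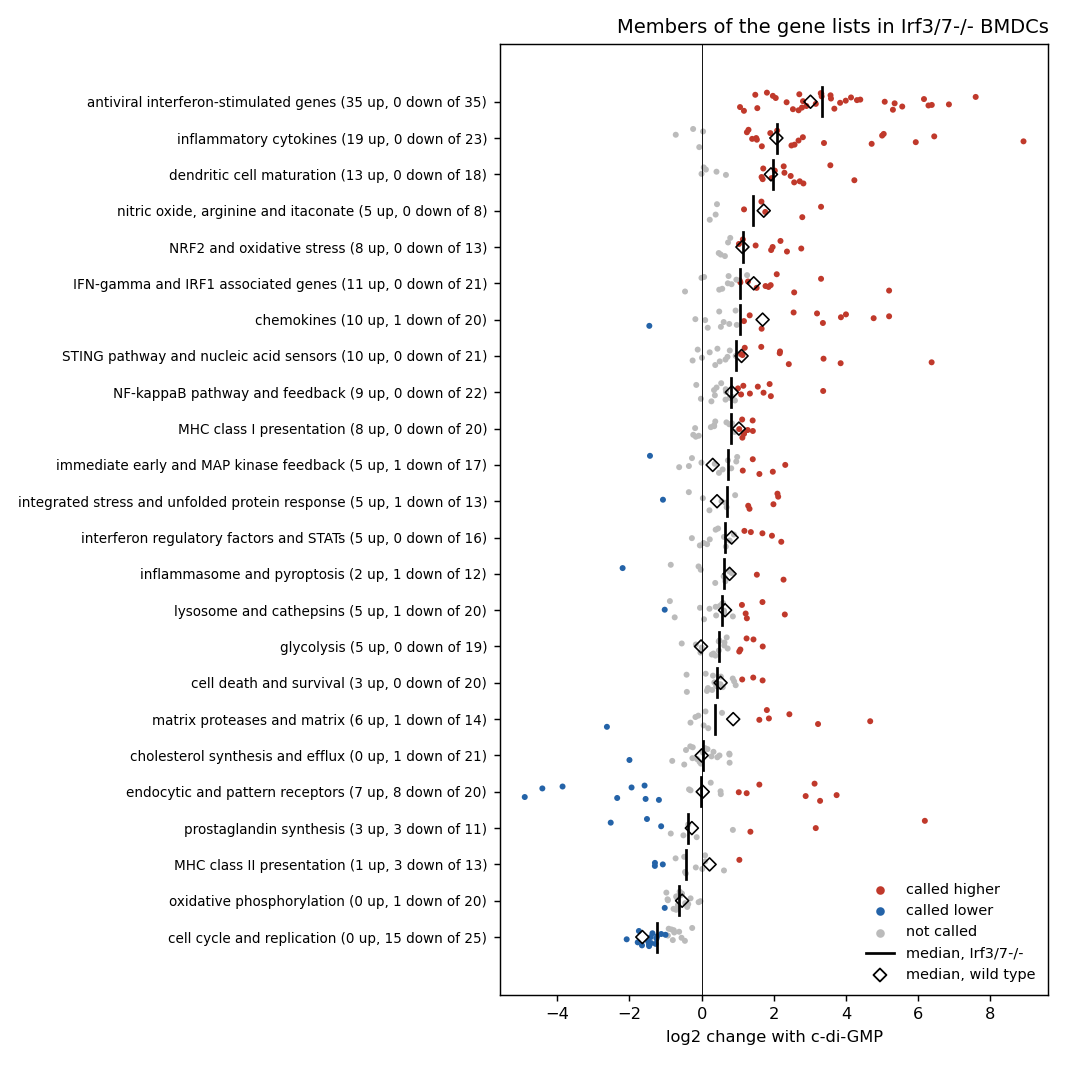
Log2 change with c-di-GMP of each tested member (points) of the gene lists in *Irf3/7*-/- BMDCs, red if called higher, blue if called lower and grey otherwise, with the median in *Irf3/7*-/- (bar) and in wild-type BMDCs (diamond); lists with under 5 tested members are left out. The antiviral list has the highest median, 3.32, and the cell cycle list the lowest, -1.23.

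The cultures were checked against marker genes of other cells. Of 11 tested markers of conventional dendritic cells, 2 rose and 2 fell, and their summed level was 834 FPKM untreated and 982 FPKM treated. *Irf8* is counted in this list and rose from 69.8 to 322 FPKM, by more than the sum did. The other members together thus had a lower sum after treatment. *Itgax*, the gene of CD11c, was at 263 FPKM (193 to 334) and 233 FPKM (170.5 to 297). *Zbtb46*, a factor of the dendritic cell lineage, was at 14.8 FPKM (10.2 to 19.4) and 22.96 FPKM (15.9 to 30.1). *Siglech*, a defining marker of plasmacytoid dendritic cells, was at 0.0845 FPKM untreated and 0.0448 FPKM treated, and the rise of that list's sum, from 129 to 781 FPKM, lay almost wholly in *Bst2*. Neutrophil markers summed to 2345 and 1477 FPKM and eosinophil markers to 771 and 751 FPKM, so granulocyte transcripts were present. In the wild type the sums were 4106 and 1924 FPKM for neutrophils and 1329 and 1085 FPKM for eosinophils. Untreated, 3 eosinophil markers were lower in the knockout than in the wild type and none higher, and 1 neutrophil marker was lower and 1 higher. Of all genes, 0.863% were lower and 1.17% higher. In the knockout *S100a8* was at 1296 FPKM (625 to 1122) and 791 FPKM (383 to 689.7), with both values above their own intervals. Macrophage and monocyte markers summed to 710 and 950 FPKM. Of the 13 tested, 4 rose and 3 fell, with a median log2 change of -0.42, so the sum hides changes in both directions. Basophil and mast cell markers summed to 178 and 284 FPKM, and B cell markers to 7.58 and 7.51 FPKM. No fibroblast marker reached 1 FPKM in the knockout.

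Markers of T cells and of NK and cytotoxic cells were summed in the same way. The T cell list summed to 203 FPKM untreated and 351 FPKM treated, against 188 and 150 FPKM in the wild type. The NK and cytotoxic list, left without *Ifng*, summed to 1043 and 2889.6 FPKM, against 1009.9 and 965 FPKM in the wild type and 30.8 and 41.6 FPKM in *Irf1*-/- BMDCs. In the knockout 3 of 12 tested T cell markers rose and none fell, and 8 of 13 NK and cytotoxic markers rose and 2 fell. In the wild type 2 of 12 T cell markers rose and 3 fell, with a median log2 change of -0.56. Of 13 NK and cytotoxic markers, 1 rose and 3 fell there. The change was more positive than in the wild type for 11 T cell markers and 9 NK and cytotoxic markers, and more negative for none. Of all genes, 3.53% were called more positive and 2.32% more negative. Among treated BMDCs, 11 T cell markers and 10 NK and cytotoxic markers had a higher level in the knockout than in the wild type, where 4.61% of all genes did. Among untreated BMDCs none of the T cell markers and 2 of the others did, where 1.17% of all genes did. *Ifng*, the gene of interferon gamma, is made mainly by these cells and is counted with the second list. It rose from 44.0 to 1155 FPKM in *Irf3/7*-/- and from 34.6 to 299 FPKM in wild-type BMDCs, a difference of 1.60 (0.70 to 2.52). *Cd3e*, a chain of the T cell receptor complex, was at 14.3 FPKM (9.53 to 19.1) and 23.3 FPKM (15.8 to 30.6) in the knockout and at 9.18 FPKM (6.01 to 11.6) and 5.41 FPKM (3.46 to 7.26) in the wild type. *Ctla4*, an inhibitory receptor of T cells, rose from 0.455 to 17.5 FPKM.

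The cytotoxic granule genes, chosen here after their values were seen, gave the largest part of the sum. *Gzmb* rose from 362 to 1242 FPKM, *Gzma* from 315 to 899.8 FPKM and *Prf1*, the gene of perforin, from 3.11 to 13.1 FPKM. In the wild type the same genes were at 321 and 336, at 349 and 329 and at 4.27 and 4.30 FPKM. *Cd4* was at 0.0737 and 0.0892 FPKM in the knockout, the NK receptor gene *Ncr1* was at 0.397 and 0.661 FPKM, and *Klrb1c*, another, fell from 4.05 to 0.618 FPKM. The part of these transcripts in the larger changes of *Ifng*, *Il12b* and other cytokine genes was not tested.

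**Figure D4:**
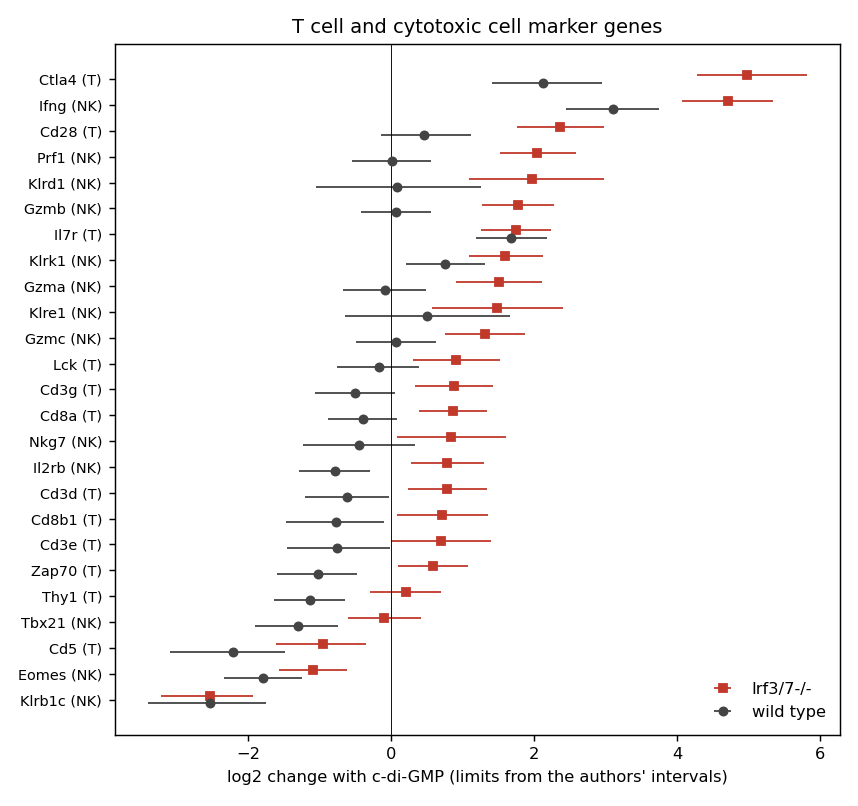
Log2 change with c-di-GMP of each marker gene of T cells (T) and of NK and cytotoxic cells (NK) in *Irf3/7*-/- (squares) and wild-type BMDCs (circles), with limits propagated from the authors' intervals. The *Irf3/7*-/- value lies to the right of the wild-type value for most genes, with *Il7r* and *Klrb1c* nearly equal.

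Across all genes the responses of *Irf3/7*-/- and wild-type BMDCs, which share no sample, overlapped widely. Of the 1149 genes that rose in the knockout, 779 also rose in the wild type, which is 67.8% of the former and 66.3% of the 1175 of the latter. Of the 866 that fell, 673 also fell in the wild type, 77.7% of the former and 60.3% of the 1116 of the latter. Only 2 genes rose in the knockout and fell in the wild type, and 4 did the reverse. Over the 11513 genes tested in both, Pearson's r of the log2 changes was 0.618, and over the 2847 genes called in either it was 0.853; genes are not independent of each other, and all values of a condition come from the same libraries. Genes called in one genotype alone were often near the threshold in the other. The 370 that rose only in the knockout had a median log2 change of 0.69 in the wild type, and 130 of them had a called difference. The 396 that rose only in the wild type had a median of 0.66 in the knockout, and 142 had a called difference.

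**Figure D5:**
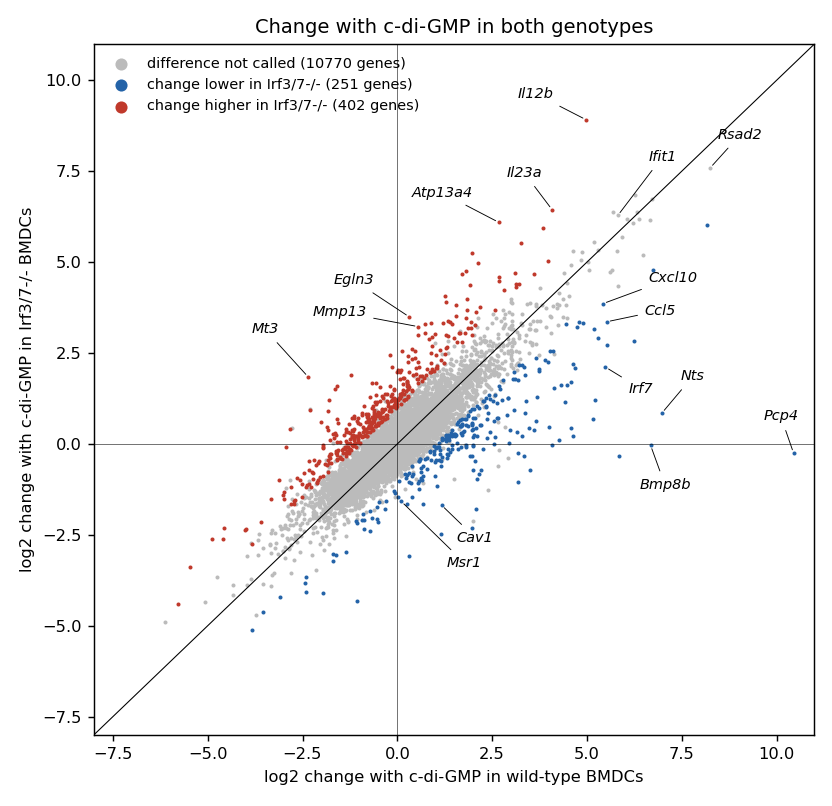
Log2 change with c-di-GMP of 11423 genes in wild-type (horizontal axis) and *Irf3/7*-/- BMDCs (vertical axis); each point is a gene above 0 FPKM in all 4 conditions, red or blue where the difference of the changes was called, and the line marks equal changes. *Il12b* lies far above the line, *Pcp4* far below it, and *Rsad2* and *Ifit1* near it.

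A smaller rise than in the wild type was called for 191 genes. By more than 2-fold and with intervals apart, the treated level was lower in the knockout for 148 of them and the untreated level higher for 13, including 4 with both, and for 34 neither was the case. Of the 191, 49 still rose in *Irf3/7*-/- BMDCs, 138 were not called and 4 fell. *Pcp4*, the gene of a calmodulin-binding peptide of neurons, reached 317 FPKM (228 to 404) in treated wild-type BMDCs from 0.127 FPKM (0 to 0.310), and it stayed at 0.172 FPKM (0 to 0.372) and 0.128 FPKM (0 to 0.310) in *Irf3/7*-/- BMDCs. This was the largest difference of all named genes, -10.70 (-12.59 to -8.77). *Bmp8b*, a bone morphogenetic protein, rose from 0.0226 to 12.5 FPKM in the wild type and was at 0.0223 and 0.0192 FPKM in the knockout. *Nts*, the precursor of neurotensin, rose from 0.142 to 30.3 FPKM in the wild type and was at 0.375 FPKM (0.135 to 0.607) and 0.755 FPKM (0.371 to 1.11) in the knockout. *Fhod3*, an actin-organizing formin, rose from 0.357 to 11.2 FPKM in the wild type and was at 0.347 and 0.423 FPKM. *Krt16*, a keratin, was listed at 0 in untreated *Irf3/7*-/- BMDCs and reached 1.02 FPKM (0.610 to 1.42), against 133 FPKM (102 to 163) in the treated wild type. *Il31*, an itch cytokine, was listed at 0 without treatment in both genotypes and reached 0.247 FPKM (0.0491 to 0.442) in the knockout and 12.9 FPKM (8.10 to 16.8) in the wild type. All 6 were under 1 FPKM in untreated BMDCs of both genotypes. *Bmp8b* and *Fhod3* overlap other listed genes, *Oxct2b* and *Tpgs2*.

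A larger rise than in the wild type was called for 176 genes. By the same measure the treated level was higher in the knockout for 130 and the untreated level lower for 15, including 1 with both, and for 32 neither was the case. Of these 176, 46 also rose in the wild type, 128 were not called there and 2 fell. *Mt3*, a metallothionein, was one of the last. It rose from 45.7 to 164 FPKM in the knockout and fell from 40.5 to 7.87 FPKM in the wild type, a difference of 4.19 (2.98 to 5.53). *Egln3*, an oxygen-sensing prolyl hydroxylase, rose from 5.85 to 66.8 FPKM and was at 10.7 FPKM (7.68 to 13.6) and 13.3 FPKM (9.63 to 17.0) in the wild type. *Mmp19*, a matrix protease gene that overlaps *Tmem198b*, rose from 6.41 to 166 FPKM in the knockout and from 5.72 to 18.8 FPKM in the wild type. *Atp13a4*, a cation-transporting ATPase, rose from 0.0902 to 12.9 FPKM in the knockout and from 0.0738 to 1.01 FPKM in the wild type. The untreated levels of these genes overlapped between the genotypes except for *Egln3*, and the treated levels lay apart for all of them.

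Of the genes that fell in the wild type, 443 were not called lower in the knockout, with a median log2 change there of -0.76, and the fall was called smaller in the knockout for 131. A larger fall was called for 45 genes. Of these 45, 13 also fell in the wild type, 28 were not called and 4 rose there. *Cav1*, the main protein of caveolae, fell from 43.2 to 13.4 FPKM in *Irf3/7*-/- BMDCs and rose from 12.3 to 27.7 FPKM in the wild type, a difference of -2.85 (-3.58 to -2.16). The untreated knockout had the highest level of the 4 conditions. *Lacc1*, a macrophage enzyme of purine metabolism, fell from 62.8 to 28.3 FPKM and rose from 33.1 to 69.1 FPKM in the wild type. *Tgfbi*, a matrix protein induced by TGF-β, fell from 56.8 to 20.6 FPKM and was at 34.6 and 45.1 FPKM in the wild type, and *Kctd12*, an auxiliary subunit of GABA-B receptors, fell from 53.5 to 11.97 FPKM and was at 57.4 and 40.3 FPKM.

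BMDCs labelled *Irf1*-/- give another point of comparison. *Irf1* itself was listed in them at 25.9 FPKM (19.0 to 33.3) untreated and 116 FPKM (82.8 to 149) treated, a called rise, against 149 and 245 FPKM in the wild type, and as for *Irf3* a value of the whole gene does not check the deletion. In *Irf1*-/- BMDCs, 1080 of 11164 tested genes rose, 9.67%, and 872 fell, 7.81%. Of 11565 genes tested for a difference, the change was higher in *Irf3/7*-/- than in *Irf1*-/- BMDCs for 486, 4.2%, and lower for 397, 3.43%, which makes 7.64% in all. *Il12b* rose from 5.73 to 49.9 FPKM in *Irf1*-/- BMDCs, and the difference from *Irf3/7*-/- BMDCs was 5.82. *Ptgs2*, which rose without IRF3 and IRF7, was at 0.187 and 0.843 FPKM in *Irf1*-/- BMDCs, a difference of 4.47. *Cd14* was at 10.6 and 12.9 FPKM, a difference of 3.01, and *Mmp19* at 4.93 and 6.74 FPKM, a difference of 4.23. Of the 35 antiviral genes, all rose in *Irf1*-/- BMDCs too, with a median log2 change of 4.12, and the change was lower in *Irf3/7*-/- BMDCs for 10 and higher for none. The list summed to 440 FPKM untreated and 9429 FPKM treated in *Irf1*-/- BMDCs, against 690 and 6883 FPKM in *Irf3/7*-/- BMDCs. *Isg15* rose from 17.0 to 2308 FPKM in *Irf1*-/- BMDCs, a difference of -1.73. Its untreated level there, 17.0 FPKM (10.8 to 21.2), lay below the 32.8 FPKM (21.9 to 43.3) of *Irf3/7*-/- BMDCs, while the treated intervals overlapped. For *Ifit1* and *Rsad2* no difference was called. They rose from 2.20 to 256 FPKM and from 2.02 to 362 FPKM in *Irf1*-/- BMDCs, with differences of -0.52 and 0.18. *Pcp4* and *Nts*, which did not rise in *Irf3/7*-/- BMDCs, rose from 0.351 to 39.3 FPKM and from 0.0370 to 13.4 FPKM in *Irf1*-/- BMDCs.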

How the data were processed

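The authors deposited a Cuffdiff gene table of 23356 genes, with 1 FPKM, the limits of its interval and a status for each condition, for conditions of 2 samples each. Reads were 35-bp paired-end reads of stranded mRNA libraries, and Cuffdiff 1.06 is named in the submitters' processing notes. The aligner, the annotation and the strand setting of Cuffdiff are not given in the sources used here. Fragments of overlapping genes on opposite strands therefore cannot be told apart from the table, and 251 of the called genes overlap another listed gene. The notes list mm9, but 21454 of 21681 loci (99%) overlapped their namesake in GRCm38 (GENCODE M21), so positions are on GRCm38. A further 9 value columns were not used, among them those of the *Tmem173*-/- BMDCs, whose name did not match the labels exactly, and of another knockout.

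Values were transformed as log2(FPKM + 0.1). The call rule for a response is given in the text. A difference between genotypes was called when the log2 changes differed by more than 1 and limits propagated from the authors' intervals of the 4 conditions (MOVER method) excluded 0, in genes that reached 1 FPKM in any of these and had status OK in all. A test such as limma needs separate replicates and could not be run. In the *Irf3/7*-/- conditions, 109 genes lacked the status OK. Of 65 small RNA genes tested, whose FPKM jump between 0 and high values, 2 were called and 6 had a called difference. The steps were run on simulated data, with noise and intervals both set from the authors' interval widths. The simulation held no variation between cultures or mice, so it cannot say how the calls behave under it. The members, the 25 gene programme lists and the 10 marker lists were chosen with earlier results of these data known. Named genes are the targeted genes, the 10 largest rises and falls, the 6 largest differences of each kind (all with at least 10 FPKM), and in each list preset key genes and the tested members with the largest rise and fall; further list members named in the text were chosen after their values were seen. Promoter windows are from RefSeq. Versions were 3.11.15 for python, 2.3.3 for pandas, 2.4.6 for numpy and 3.10.9 for matplotlib.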

Additional observations from a re-analysis of the deposited data

Results flagged for a closer look

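Results stand here because the log2 change with c-di-GMP differed between *Irf3/7*-/- and wild-type BMDCs by more than 1, with propagated limits that exclude 0; 5.85% of all genes tested for a difference met this. Values are the change in *Irf3/7*-/- minus that in wild-type BMDCs on the log2 scale, so a positive one is a more positive change in the knockout. The differences were tested one gene at a time on values combined over samples, and no p-value stands behind them.

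Among cytokines and their partners the change was more positive for *Il12b* (3.94), *Il23a* (2.36), *Il10* (2.05), *Ifng* (1.60), *Il6* (1.07), *Tnf* (1.07), *Cxcl1* (2.96) and the NF-κB partner *Nfkbiz* (1.97). It was more negative for *Il33* (-2.93), *Ccl5* (-2.16), *Cxcl10* (-1.56), *Ccl2* (-1.43), *Casp1* (-1.01) and *Ciita* (-1.03). Among enzymes of small molecules it was more negative for *Irg1* (-2.21), *Ptges* (-2.04), *Ido1* (-1.96), *Nos2* (-1.14) and *Hdc* (-2.87). It was more positive for *Nqo1* (1.67), *Sqle* (1.18) and *Ctsl* (1.03). The treated level of *Nos2* was nevertheless higher in the knockout, at 780 FPKM (558 to 1002) against 334 FPKM (248 to 420) in the wild type.

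Lymphocyte markers had more positive changes: *Cd3d* (1.40), *Cd3e* (1.45), *Cd3g* (1.39), *Cd5* (1.26), *Ctla4* (2.86) and the B cell receptor chain *Cd79a* (1.65), as did *Cd70* (1.41). Of matrix genes, *Mmp19* (2.97), *Mmp13* (2.67), *Fn1* (1.97), *Mmp12* (1.57) and *Mmp9* (1.29) had more positive changes, and *Mmp14* (-1.64), *Timp1* (-1.39) and *Col1a2* (-6.15) more negative ones. *Col1a2* is a collagen gene of stromal cells that was at 0.0701 and 0.0361 FPKM in the knockout and rose from 0.0208 to 6.78 FPKM in the wild type.

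The targeted genes differed as well, *Irf3* by 1.71 and *Irf7* by -3.38. Genes listed at 0 in a condition, such as *Krt16*, *Il31* and *Ifna4*, have no value here. Of the genes named in the text for the size of their difference, others were *Pcp4* (-10.70), *Bmp8b* (-6.72), *Nts* (-6.13), *Fhod3* (-4.40), *Mt3* (4.19), *Atp13a4* (3.42) and *Egln3* (3.17). Among genes that fell in the knockout, the change was more negative for *Cav1* (-2.85), *Lacc1* (-2.20), *Tgfbi* (-1.84), *Msr1* (-1.68), *Slamf9* (-1.68), *Kctd12* (-1.64), *Actg2* (-1.30) and *Naaa* (-1.13), and less negative than in the wild type for *Fcrls* (1.37) and *Clec10a* (1.14).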

How the results depend on the processing

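Without changing any direction, the thresholds moved the counts. With more than 4-fold in place of 2-fold, 362 genes rose and 138 fell in *Irf3/7*-/- BMDCs, 233 rose and 87 fell in both genotypes, and the smaller rises, larger rises and larger falls relative to the wild type, with a difference beyond 2 on the log2 scale, came to 60, 34 and 5 (191, 176 and 45 in the report). Rises were then 72.4% of the calls, against 57.0% in the report. A pseudocount of 1 FPKM gave 113 larger rises. A minimum of 5 FPKM gave 112 larger rises and 115 smaller ones. Larger falls came to 75 with 1.5-fold and to 88 with the fold change alone. The others of these 7 counts stayed within 1.5 times under a pseudocount of 0.01 FPKM, no filter, median centring and the rest of these settings, and also without genes whose FPKM lay outside its own interval or whose locus overlaps another, both chosen after seeing the data. Counts of called members of the gene lists moved by more than 1.5 times in 62 cases. Of these, 35 came with 4-fold (cell cycle genes that fell from 15 to 1, NF-κB genes that rose from 9 to 1, MHC class I genes from 8 to 0 and NK and cytotoxic markers from 8 to 2), 14 with 1.5-fold (T cell markers that rose from 3 to 7, immediate early genes from 5 to 8, oxidative phosphorylation genes that fell from 1 to 6) and 13 with the others, each of which moved a count by 1. Of 200 named genes, 110 were called, none reversed under any setting, and 54 were called under all of them. With a minimum of 5 FPKM, *Il10*, *Irf7*, *Klrb1c*, *Krt16*, *Nlrp1b* and *Ptges* were no longer tested, and *Relb* was not called with a pseudocount of 1 FPKM. Of the named genes' 60 called differences from the wild type, 33 were not called beyond 2 on the log2 scale, 7 not with a pseudocount of 1 FPKM (*Casp1*, *Cd5*, *Cd79a*, *Ciita*, *Fcrls*, *Fn1* and *Il10*), 5 not with a minimum of 5 FPKM (*Cd5*, *Cd79a*, *Ido1*, *Ifna4* and *Il10*), *Actg2* not with a pseudocount of 0.01 FPKM and *Ctsl* not with median centring. No paired analysis was possible because the deposited columns combine the replicates, and for the same reason no replicate could be left out. The width of the intervals, about 25% of the FPKM on either side for genes of 10 FPKM or more and wider below, limits what can be told apart.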

Other observations

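Further gene groups were measured in *Irf3/7*-/- BMDCs, where 10.2% of all tested genes rose and 7.68% fell. Of 20 lysosomal genes, 5 rose and 1 fell, with 4 and 1 in the wild type. *Ctsk*, a collagen-degrading cathepsin, rose from 4.05 to 20.4 FPKM, and *Ctsl*, cathepsin L, rose from 65.0 to 152 FPKM in the knockout and was at 66.7 and 76.0 FPKM in the wild type. Of 17 immediate early and MAP kinase feedback genes, 5 rose and 1 fell. *Fos* rose from 2.61 to 13.4 FPKM, and *Myc*, the growth factor-responsive regulator, fell from 42.8 to 15.8 FPKM in the knockout and from 44.1 to 9.03 FPKM in the wild type. Of 13 genes of the integrated stress and unfolded protein responses, 5 rose and 1 fell. *Ddit3*, the gene of CHOP, rose from 12.9 to 51.5 FPKM, while *Hspa5*, the chaperone BiP, was at 426 FPKM (297 to 558) and 437 FPKM (312 to 567).

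Of 20 genes of cell death and survival, 3 rose and none fell, where 10.2% of all tested genes rose and 7.68% fell. Counts this near to the shares of all genes, here and in the next lists, say little about a list. *Cflar*, the inhibitor of caspase 8, rose from 44.9 to 145 FPKM. *Mlkl*, the effector of necroptosis, rose from 21.5 to 58.0 FPKM, and *Fas* from 14.1 to 30.8 FPKM. Of 12 inflammasome genes, 2 rose and 1 fell. *Casp4*, the sensor of cytosolic lipopolysaccharide, rose from 20.7 to 100.1 FPKM. *Casp1* was at 64.6 FPKM (49.5 to 79.6) and 102 FPKM (77.6 to 126) in the knockout and rose from 49.5 to 157 FPKM in the wild type. *Gsdmd*, which forms the pore of pyroptosis, was at 58.8 FPKM (45.0 to 72.6) and 89.8 FPKM (68.4 to 111). Of 21 genes of cholesterol synthesis and efflux, none rose and *Dhcr7* alone fell, from 10.2 to 2.47 FPKM, while 3 fell in the wild type. *Sqle*, squalene epoxidase, was at 11.6 and 9.79 FPKM in the knockout and fell from 12.7 to 4.67 FPKM in the wild type. *Hdc*, which makes histamine, rose from 5.64 to 17.4 FPKM in *Irf3/7*-/- BMDCs and from 3.45 to 79.1 FPKM in the wild type. It is also a marker of basophils and mast cells, whose list summed to 178 and 284 FPKM in the knockout and to 77.8 and 168 FPKM in the wild type, with 6 markers higher in the untreated and 8 in the treated knockout than in the wild type, where 1.17% and 4.61% of all genes were. *Mcpt8*, a basophil protease, was at 47.5 and 74.0 FPKM in the knockout and at 23.3 and 24.5 FPKM in the wild type. The part of these cells in the *Hdc* values was not tested.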
